A study of Canis lupus familiaris with 10 samples.

Results

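The cell line 17-71, an established canine B-cell lymphoma line, was exposed to a selective inhibitor of PRMT5 and profiled on whole-transcript gene arrays at day 4. The 5 arrays of this line were 3 of cells given 100 nM of the compound and 2 of control cells, out of 10 arrays in the whole series, and all 32391 probe sets were used. The labels name the compound PR220 and the study names it C220; per the study's methods the control cells received its solvent, DMSO. The other 5 arrays (3 control and 2 treated) are of CLBL-1, a second canine B-cell lymphoma line, which was given the same dose and collected at day 2, so line and day cannot be told apart wherever both are set side by side. The labels do not say that replicates came from separate cultures although the study calls them biological, and p-values therefore measure only how far these samples spread, which may be technical.

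PRMT5 is the main enzyme that symmetrically dimethylates arginine residues, in histones and in many other proteins. Among its best known substrates are the Sm proteins, which form the core of the small nuclear ribonucleoproteins (snRNPs) of the spliceosome, the machine that removes introns from transcripts. Loss of PRMT5 activity is known to disturb splicing, in particular of introns with weak splice sites, and PRMT5 has been linked to MYC and to the cell cycle in lymphoma. The values are log2 expression after robust multi-array averaging (RMA), which gives all arrays the same overall distribution and so hides any change in RNA per cell. A log2 difference of 1 is a doubling.

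Across probe sets Pearson's r was 0.990 within each group and between 0.988 and 0.989 for treated against control arrays of 17-71. The first principal component held 29.5% of the variance and set the control arrays (-23.0 and -32.2) apart from the treated arrays (17.9 to 18.7). The labelled cell type was checked against 7 B cell markers. CD37, a B cell tetraspanin, read 9.21 and CD22, a B cell lectin, 7.37 in control 17-71 cells. MS4A1, which encodes CD20, read 2.19, against 12.03 in CLBL-1 control cells. CD79A, a chain of the B cell receptor, read 3.72 against 8.97, CD79B 4.07 against 7.70, BLNK, its adaptor, 4.05 against 8.99, and PAX5, the B lineage factor, 5.04 against 8.89. These defining markers thus read well below CLBL-1, with MS4A1 and CD79A under the median of the array (3.77). Of the 8 myeloid markers, LYZ, lysozyme, was the brightest and exceeded every B cell marker, at 10.8 against 11.1 in CLBL-1. CD68 read 9.65 against 4.13 and AIF1 7.12 against 4.08, while CSF3R (3.56), CD14 (3.42), ITGAM (3.38), CSF1R (2.99) and MPO (2.58) lay below the array median. None of the 7 measured B cell and 8 myeloid markers reached an unadjusted p below 0.05 between treated and control 17-71 cells. Of the other markers, CD5 and CD3G of T cells (log2 differences of 0.50 and -0.57) and the epithelial keratin KRT18 (0.55) did, among 9 T and NK cell, 10 stromal, endothelial and epithelial and 4 erythroid and platelet markers measured. Over all genes 3.39% were higher and 5.24% lower at that level, so these small counts say little about cell types. CD5 read 2.30 and 2.31 in control cells, near the floor of the arrays, and the part of these markers in the results was not tested. In bulk samples fewer cells of a type and less of its RNA per cell cannot be told apart.

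To establish which genes responded to 4 days of PRMT5 inhibition, treated and control arrays of 17-71 were compared with limma. No probe set passed an adjusted p below 0.05 (0 of 32391, 0%; smallest adjusted p = 0.204), so none of the differences below is a call and each is given as a value. In a joint fit with the arrays of CLBL-1, 15 probe sets passed, and 35 did with robust variances and an intensity trend. At an unadjusted p below 0.05, 1320 probe sets read higher (4.08%) and 1596 lower (4.93%) in treated cells. Among the 15947 genes represented by 1 probe set each, 540 were higher (3.39%) and 835 lower (5.24%) at that level. In 2253 genes (14.1%) all treated arrays read above both controls, and in 2642 (16.6%) below them. Changes were small: 90 of the 540 higher genes and 174 of the 835 lower genes differed by 0.5 or more on the log2 scale, and 2 genes, both lower, by 1 or more. The median 95% interval of a gene reached 0.306 to either side of its log2 difference.

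The genes that were higher and those that were lower lay at different levels. The median control level was 3.42 for the higher genes, 6.11 for the lower genes and 4.68 for all genes. Of the 9628 genes at or above the array median in control cells, 224 were higher (2.33%) and 713 lower (7.41%). Among the 6319 dimmer genes the order turned, with 316 higher (5.00%) and 122 lower (1.93%). The genes named below had to reach the array median only in the group where they were higher, so the higher genes include some that were dim in control cells: CXCR5, CROCC, APOA4, CCKAR, S1PR1 and TMEM235 read between 3.25 and 3.66 there.

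**Figure D1:**
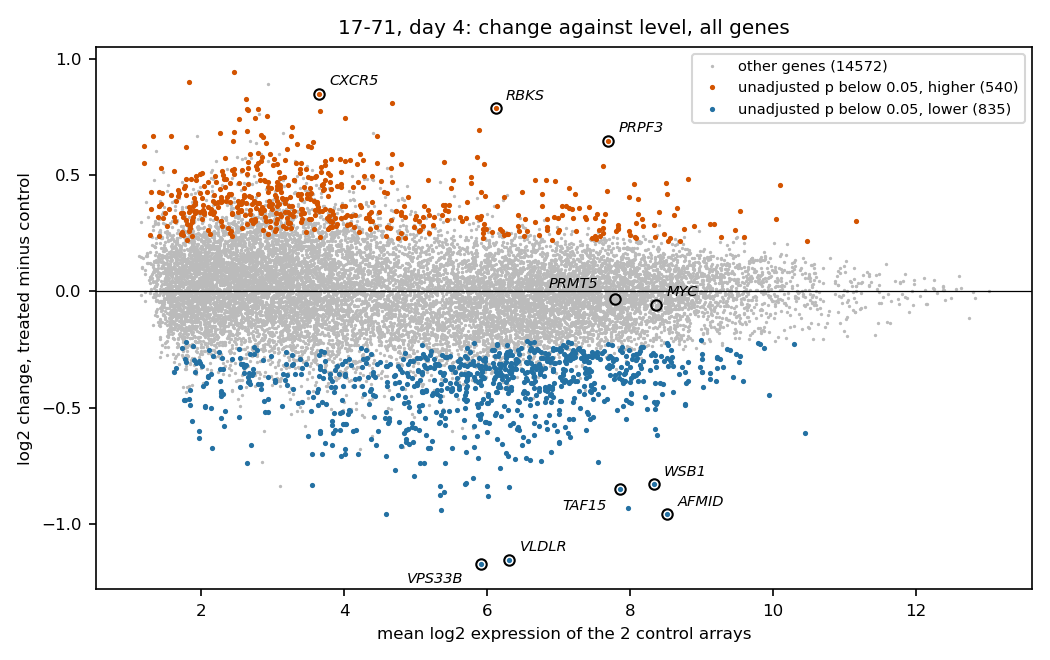
Log2 difference of treated minus control 17-71 cells (vertical axis) against the mean log2 expression of the 2 control arrays (horizontal axis), with 1 point per gene and 15947 genes in all; orange and blue mark genes at an unadjusted p below 0.05. The 540 orange points crowd at low levels (median 3.42) and the 835 blue points at higher levels (median 6.11), and PRMT5 and MYC sit near 0.

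PRMT5 itself read 7.72 and 7.86 in the control arrays and 7.84, 7.69 and 7.75 in the treated arrays. Its groups overlapped and the log2 difference was -0.03 (SE 0.102, adjusted p = 0.95, limma). MYC, the transcription factor of growth and biosynthesis, read 8.41 and 8.31 in control and 8.24, 8.38 and 8.30 in treated cells. These groups overlapped too (log2 difference -0.06, SE 0.0962, adjusted p = 0.896). The compound inhibits the enzyme and not its transcript, so the level of PRMT5 mRNA does not check the labels.

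Among the genes that read higher in treated cells, CXCR5, the receptor that leads B cells into follicles, had the smallest p. It read 3.71 and 3.58 in control and 4.52, 4.50 and 4.47 in treated arrays, a 1.80-fold difference (log2 difference 0.85, SE 0.0907, adjusted p = 0.389). Its control level thus lay just below the array median, and the treated level stayed far under the 8.74 of CLBL-1 control cells. RBKS, ribokinase, read 6.19 and 6.04 in control and 6.94, 6.87 and 6.91 in treated cells (1.73-fold, log2 difference 0.79, SE 0.0941). PRPF3, a protein of the U4/U6 snRNP, read 7.72 and 7.66 against 8.34, 8.28 and 8.40 (1.57-fold, log2 difference 0.65, SE 0.0898). In these 3 genes the gap between the groups was several times the spread within either. They were picked by the smallest p among genes without overlap, so the choice favoured such a gap. S100A8, a calcium-binding protein of myeloid cells, read 4.77 and 4.57 in control and 5.57, 5.54 and 5.33 in treated cells (log2 difference 0.81, SE 0.125). DDX23, a helicase of the spliceosome, read 7.58 and 7.68 against 8.15, 8.18 and 8.16 (0.54, SE 0.087). The other genes among the 12 with the smallest p in this direction were CROCC, the ciliary rootlet protein (0.63), NUPR2 (0.59), COQ7 of ubiquinone synthesis (0.55), the transmembrane collagen COL13A1 (0.55), the apolipoprotein APOA4 (0.53), the vesicle protein VAMP5 (0.50) and MRTFB, a coactivator of serum response factor (0.48, and 0.26 by its other probe set). Their adjusted p lay between 0.389 and 0.467. The larger differences beyond these were those of CCKAR (0.77), NMS (0.74), S1PR1 (0.71), IL22RA2 (0.70) and TMEM235 (0.67), with SEs of 0.152 to 0.238. S1PR1, the receptor for lymphocyte egress, had control arrays far apart (3.61 and 2.92) and treated arrays of 3.85, 4.20 and 3.88.

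Among the genes that read lower, AFMID, the kynurenine formamidase of tryptophan breakdown, stood first. It read 8.55 and 8.48 in control and 7.51, 7.57 and 7.61 in treated arrays, a 1.94-fold difference (log2 difference -0.96, SE 0.0882, adjusted p = 0.389). WSB1, a substrate receptor of a ubiquitin ligase, read 8.31 and 8.34 against 7.47, 7.47 and 7.56 (-0.83, SE 0.0875). TAF15, an RNA-binding protein of the FET family, read 7.84 and 7.88 against 7.10, 6.96 and 6.97 (-0.85, SE 0.0934). Each of these abundant transcripts was lower in all 3 treated arrays with no overlap, which the naming rule required and 16.6% of all genes showed. TERT, the catalytic subunit of telomerase, read 5.24 and 5.47 in control and 4.30, 4.54 and 4.41 in treated cells (1.92-fold, -0.94, SE 0.125). ARGLU1, a coactivator that also takes part in splicing, read 7.97 and 7.98 against 7.10, 6.85 and 7.18 (1.91-fold, -0.93, SE 0.128). VPS33B, a protein of vesicle tethering, read 5.74 and 6.09 against 4.79, 4.87 and 4.57 (2.26-fold, -1.17, SE 0.155). VPS33B and VLDLR, a lipoprotein receptor, were the 2 genes beyond a doubling. VLDLR was much less certain: its control arrays read 5.79 and 6.82 and its treated arrays 5.06, 5.18 and 5.22 (-1.15, SE 0.305, adjusted p = 0.494). The other 10 lower genes that the naming rule took were ZCWPW1, a reader of histone methylation (-0.96), SFXN2, a mitochondrial carrier (-0.88), ALG13 of N-glycan synthesis (-0.87), SPAG4 of the nuclear envelope (-0.84), the clathrin adaptor subunit AP1G2 (-0.83), ERMARD (-0.74), the nucleosome-binding protein HMGN4 (-0.73), HHIPL1 (-0.72), TTC19 of respiratory complex III assembly (-0.67) and the integrin ITGAX (-0.63). Their adjusted p lay between 0.389 and 0.467.

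**Figure D2:**
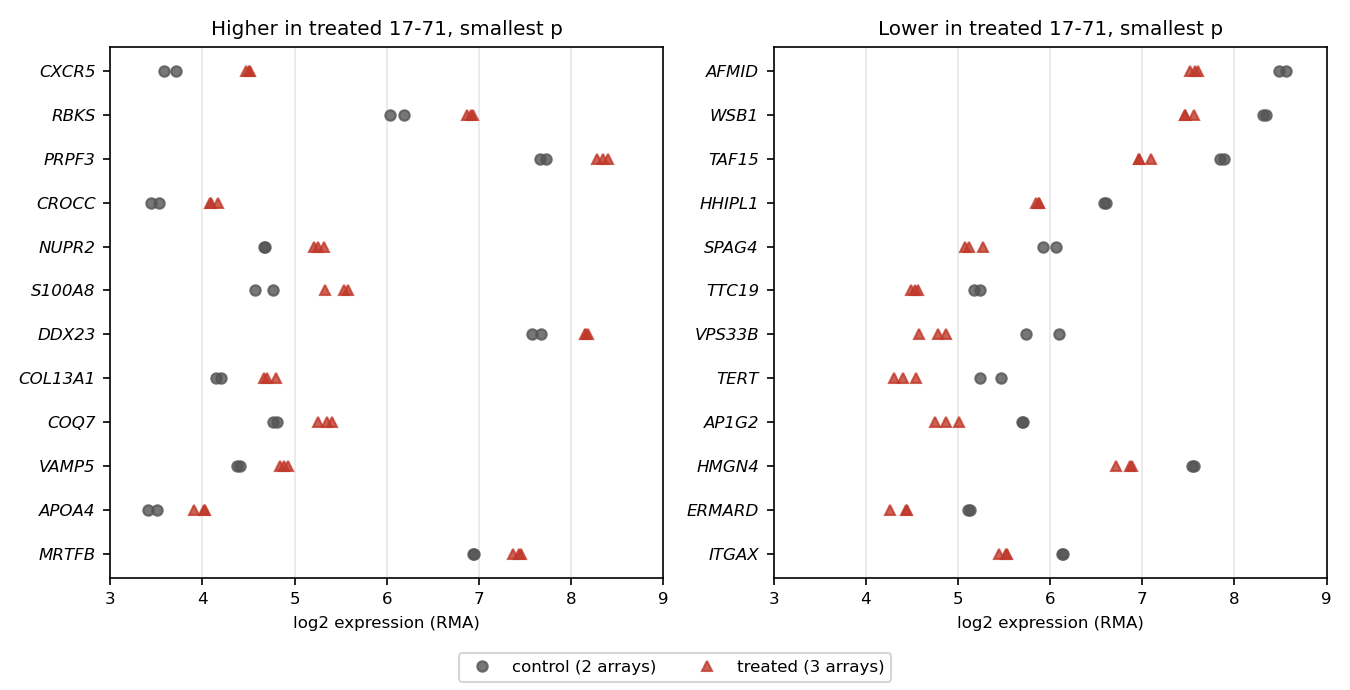
Log2 RMA expression (horizontal axis) in each of the 2 control arrays (grey circles) and 3 treated arrays (red triangles) of 17-71 for the 12 genes with the smallest p in each direction. In every gene shown the treated arrays lie on 1 side of the control arrays, a property the choice of genes required, and AFMID goes from 8.48 and 8.55 to between 7.51 and 7.61.

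Genes of splicing were examined by the part of the machine they belong to, and the groups went different ways. Of 174 measured genes 106 were positive and 68 negative, with 12 higher (6.90%, against 3.39% of all genes) and 7 lower (4.02%, against 5.24%) at an unadjusted p below 0.05. Of the U4/U6.U5 tri-snRNP and catalytic factors, 34 of 43 were positive (median log2 difference 0.11 against -0.00054 over all genes). Here 4 were higher (9.30%, against 3.39% of all genes) and 0 lower at that level, and in 23 (53.5%, against 14.1%) all treated arrays read above the controls. Beside PRPF3 and DDX23 these were PRPF8, the core protein of the catalytic centre, which read 10.1 in both control and 10.5, 10.5 and 10.6 in the treated arrays (0.46, SE 0.0834), and PRPF4 (0.40, SE 0.115). The U2 particle, which recognises the branch point, had 16 of 20 positive (median 0.06). At that level 3 were higher (15.0%, against 3.39% of all genes) and 0 lower, namely DDX46 (0.32), SF3B2 (0.24) and SF3B6 (0.24). The Sm and LSM proteins, the group that holds the classical substrates of PRMT5, had 12 of 16 positive (median 0.09), with SNRPN (0.54, from a level of 3.00) and LSM3 (0.26). At that level 2 were higher (12.5%, against 3.39% of all genes) and 0 lower. The hnRNP proteins, which coat nascent transcripts, had 16 of 21 positive with a median of 0.10. At that level 0 were higher (against 3.39% of all genes) and 0 lower (against 5.24%). In all of these groups the differences of most members were smaller than the median interval of 0.306.

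Against that trend, the U1 particle and its partners, which mark the 5′ splice site, had 11 of 12 negative (median -0.09). At an unadjusted p below 0.05, 2 were lower (16.7%, against 5.24% of all genes) and 0 higher. LUC7L read 6.47 and 6.24 in control and 5.87, 6.07 and 6.02 in treated arrays (-0.37, SE 0.121), and NKTR, a cyclophilin with a serine/arginine-rich tail, read 6.92 and 6.93 against 6.57, 6.76 and 6.53 (-0.31, SE 0.106). The FET and paraspeckle proteins were negative in 7 of 7 (median -0.16), with TAF15 and TARDBP (-0.30, SE 0.0995) at an unadjusted p below 0.05 (28.6%, against 5.24% of all genes). The 15 SR proteins, which help define exons, were balanced, with 9 positive and 6 negative. Within them SRSF5 read 6.98 and 7.02 in control and 6.48, 6.33 and 6.25 in treated arrays (-0.65, SE 0.106), and TRA2A 7.38 and 7.31 against 7.01, 6.73 and 7.08 (-0.41, SE 0.135). Both were lower in every treated array (13.3% of the list, against 16.6% of all genes). As many SR proteins, 2, read above both controls in every treated array (13.3%, against 14.1%). At an unadjusted p below 0.05, 2 of 15 were lower (13.3%, against 5.24% of all genes) and 0 higher. Among the kinases that phosphorylate SR proteins, 8 of 11 were negative. At that level 1 was lower (9.09%, against 5.24% of all genes) and 1 higher (9.09%, against 3.39%). CLK1 read 7.9998 and 8.22 in control and 7.80, 7.74 and 7.63 in treated arrays (-0.38, SE 0.114), whereas PRPF4B read 7.18 and 7.11 against 7.67, 7.57 and 7.52 (0.44, SE 0.0947). The SMN complex, which loads Sm proteins onto RNA, had 5 positive and 4 negative members. At that level 0 were higher (against 3.39% of all genes) and 0 lower (against 5.24%). Of the export and exon junction factors, ALYREF, the export adaptor (0.42, SE 0.0849), and MAGOH (0.33, SE 0.119) were higher at that level, with 10 of 20 positive. These 2 were 10.0% of the list, against 3.39% of all genes, and 0 members were lower. In the PRMT family and its partners PRMT7 (0.36, SE 0.0866) and PRMT9 (-0.36, SE 0.134), both enzymes of arginine methylation, went opposite ways and 10 of 17 were negative. At that level 1 was higher and 1 lower (5.88% each, against 3.39% and 5.24% of all genes). The study drew its splicing theme from these same arrays, so these groups are not independent evidence of a direction.

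**Figure D3:**
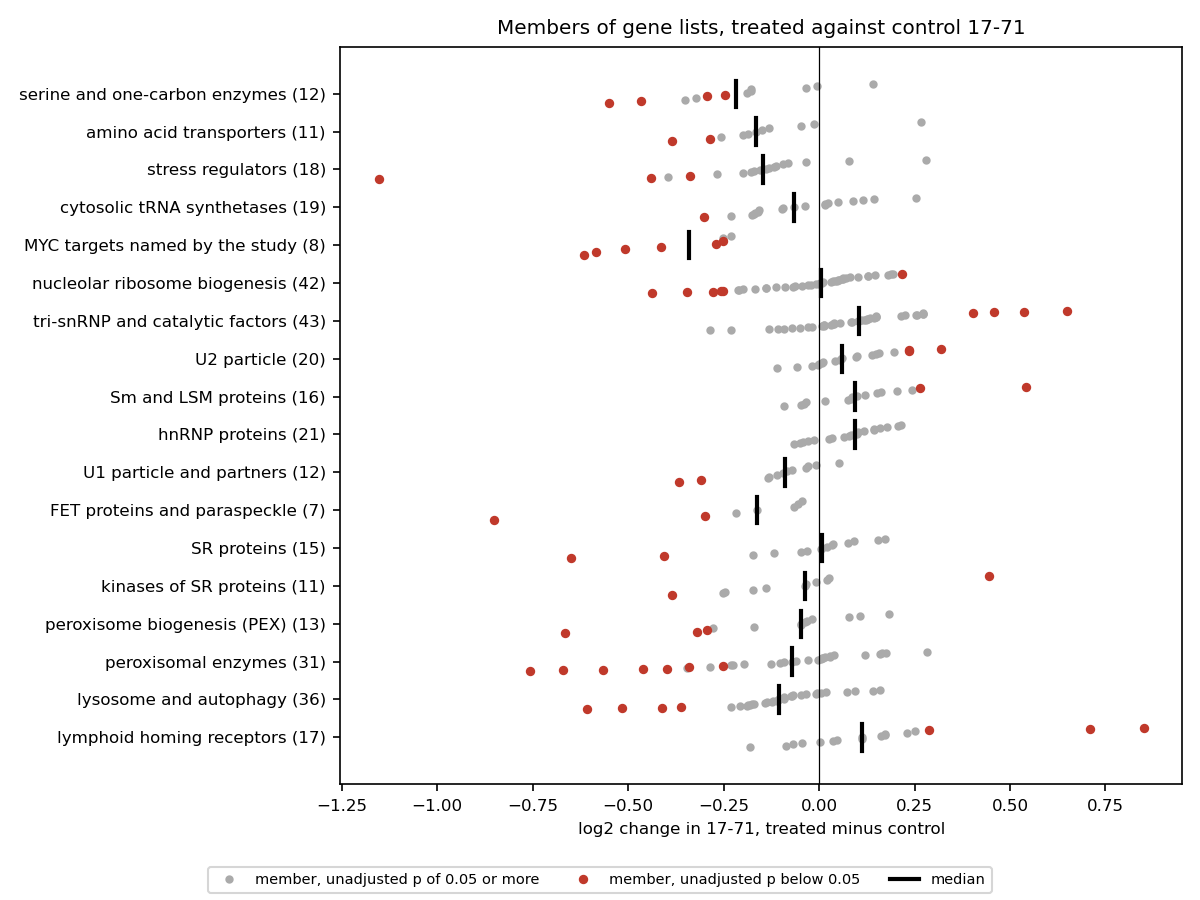
Log2 difference of treated minus control 17-71 cells (horizontal axis) for each measured member of 18 gene lists, with the number of members in brackets; red points have an unadjusted p below 0.05, grey points do not, and black bars are medians. The tri-snRNP, U2, Sm and hnRNP lists have medians of 0.06 to 0.11 while the U1 and FET lists lie at -0.09 and -0.16, and the amino acid lists at -0.15 to -0.22.

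Genes under the control of ATF4, the transcription factor that answers amino acid shortage and stress in the endoplasmic reticulum (ER), read lower in treated cells in most of the groups examined, the tRNA synthetases being the exception. Over the lists together 48 of 60 measured genes were negative (median -0.16). At an unadjusted p below 0.05, 10 were lower (16.7%) and 0 higher. Of all genes 5.24% were lower at that level, and of those at or above the array median 7.41%. In 38 (63.3%, against 16.6% of all genes) the treated arrays all lay below the controls. Enzymes of serine, one-carbon and asparagine synthesis were negative in 11 of 12 (median -0.22). PSPH, the phosphatase that completes serine synthesis, read 8.004 and 7.88 in control and 7.37, 7.43 and 7.37 in treated arrays (1.46-fold, -0.55, SE 0.0917). PHGDH, the first enzyme of that path, read 9.40 and 9.32 against 9.14, 9.12 and 9.08 (-0.25, SE 0.0867), and ASNS, asparagine synthetase, 7.84 and 7.76 against 7.54, 7.48 and 7.50 (-0.29, SE 0.0871). PCK2, the mitochondrial phosphoenolpyruvate carboxykinase, differed by -0.47 (SE 0.143). All 3 treated arrays lay below both controls for each of these enzymes. Amino acid transporters were negative in 10 of 11 (median -0.16), led by the neutral amino acid carriers SLC1A5, at 9.52 and 9.63 against 9.16, 9.31 and 9.10 (-0.38, SE 0.108), and SLC1A4 (-0.28, SE 0.112). Of the stress regulators 16 of 18 were negative (median -0.15), among them CHAC1, which degrades glutathione, at 8.06 and 7.96 against 7.60, 7.68 and 7.43 (-0.44, SE 0.112), and CEBPG, a partner of ATF4 (-0.34, SE 0.0935). The tRNA synthetases were less uniform, with 11 of 19 negative (median -0.07) and only CARS1 (-0.30, SE 0.0954) at an unadjusted p below 0.05 (5.26%, against 5.24% of all genes). In the 3 lists other than the synthetases, the median of the members lay lower in each treated array (-0.13 to -0.22 from the control mean) than in either control (-0.04 to 0.04).

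**Figure D4:**
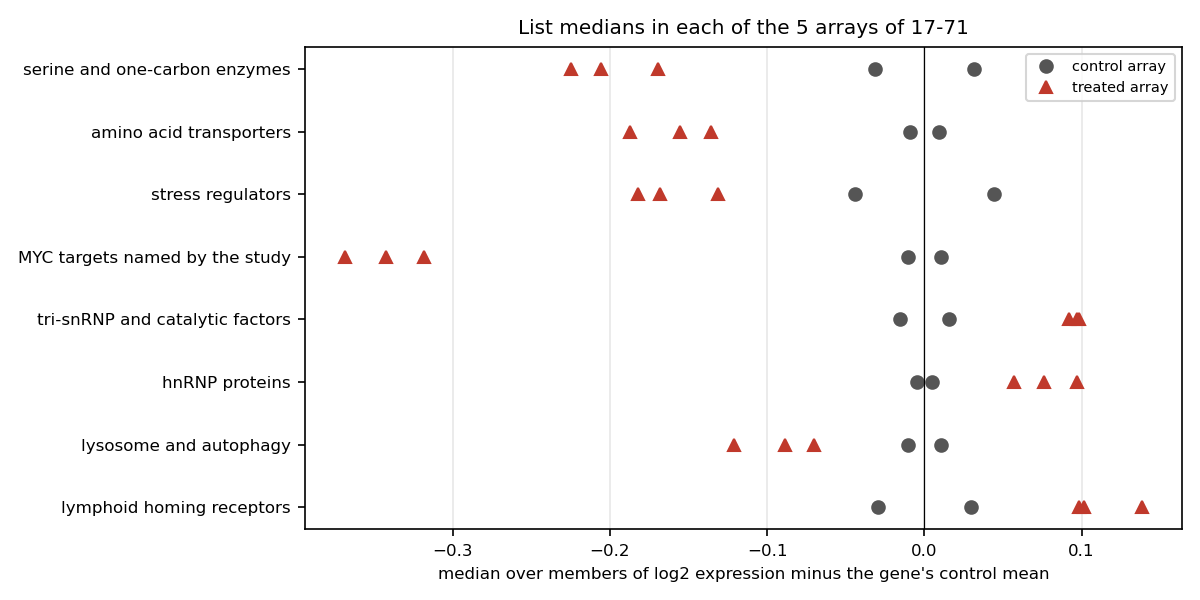
Median over the members of a list of log2 expression minus the gene's control mean (horizontal axis), in each of the 2 control arrays (grey circles) and 3 treated arrays (red triangles) of 17-71 for 8 lists. For serine and one-carbon enzymes the treated arrays lie at -0.22 to -0.17 and the controls at -0.03 and 0.03; for tri-snRNP factors the treated arrays lie at 0.09 to 0.10.

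The 8 MYC targets that the study names were negative in 8 of 8 (median -0.34), with no overlap between groups in any (100%, against 16.6% of all genes). At an unadjusted p below 0.05, 6 of the 8 were lower (75.0%, against 5.24% of all genes). The 8 were chosen by the study on these arrays and are no independent evidence. B3GNTL1, a putative glycosyltransferase, differed by -0.61 (SE 0.164), TRNAU1AP of selenocysteine incorporation by -0.58 (SE 0.169), SORD, sorbitol dehydrogenase, by -0.51 (SE 0.127) and IPO4, an importin, by -0.41 (SE 0.136). ALG3, a mannosyltransferase (-0.27), and the nucleolar protein NOC4L (-0.25) completed the 6, while PUS7 (-0.25) and FARSA (-0.23) did not reach that level. The wider nucleolar set of ribosome biogenesis, typical of MYC activity, had 22 of 42 positive (median 0.0048). At that level 5 were lower (11.9%, against 5.24% of all genes and 7.41% of those at or above the array median). Only 1 was higher (2.38%, against 3.39% of all genes). The lower genes were URB2 (-0.44), NOP56, NOC2L (-0.28), RRP9 (-0.26) and NOC4L. NOP56, a core protein of the methylation guide complexes, read 9.02 and 8.99 against 8.67, 8.65 and 8.66 (-0.35, SE 0.0823), and its partner FBL, the RNA methyltransferase fibrillarin and the 1 higher gene, read 8.70 and 8.69 against 8.91, 8.94 and 8.89 (0.22, SE 0.083). These partners of 1 complex thus read in opposite directions. Cytosolic ribosomal proteins had 39 of 59 positive with a median of 0.02. At an unadjusted p below 0.05, 4 were higher (6.78%, against 3.39% of all genes) and 0 lower. Of the higher ones RPS27A (0.40, SE 0.0957) had the smallest p and RPL38 lay near the floor of the arrays (1.36 and 1.23 in control).

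Genes of peroxisomes, the organelles of very long chain and branched fatty acid oxidation and ether lipid synthesis, were lower at an unadjusted p below 0.05 in 10 of 44 (22.7%, against 5.24% of all genes and 7.41% of the brighter genes) and higher in 0; the peroxisome was also a theme the study drew from these arrays. PEX10, a ubiquitin ligase of the import machinery, read 4.88 and 4.69 in control and 4.13, 3.95 and 4.28 in treated arrays (-0.67, SE 0.136). PEX7, the receptor for the second import signal (-0.32), and PEX14 of the docking complex (-0.29) followed. Of the enzymes, CROT, a carnitine acyltransferase, read 8.47 and 8.45 against 8.07, 8.07 and 8.04 (-0.40, SE 0.0825). ACOT8, a thioesterase (-0.46), IDH1 (-0.34), NUDT12 (-0.67) and FAR1 of ether lipid synthesis (-0.25) were also lower at that level. The 10 lower genes also count ABCD4 (-0.57), an ABC transporter that is not a peroxisomal enzyme. Medians were -0.05 for biogenesis and -0.07 for the list of enzymes. Lysosome and autophagy genes were negative in 30 of 36 (median -0.11). CYB561A3, a lysosomal iron reductase, read 10.5 and 10.4 in control and 9.79, 9.76 and 9.96 in treated arrays (1.52-fold, -0.61, SE 0.103). GAA, acid alpha-glucosidase (-0.52), the cation channel MCOLN1 (-0.41) and ATP6V1A, a subunit of the acidifying proton pump (-0.36), were also lower at an unadjusted p below 0.05. In all, 4 members were lower at that level (11.1%, against 5.24% of all genes and 7.41% of the brighter genes) and 0 higher. ER chaperones and folding factors were negative in 20 of 26 (median -0.07), with EDEM1 (-0.29) and ERO1B (-0.26). At that level 2 were lower (7.69%, against 5.24% of all genes and 7.41% of the brighter genes) and 0 higher. Cytosolic chaperones were positive in 23 of 31 (median 0.06). Among them were STIP1, an HSP70 and HSP90 adaptor, at 0.29 and the chaperone-linked ubiquitin ligase STUB1 at -0.44. At that level 1 was higher and 1 lower (3.23% each, against 3.39% and 5.24% of all genes).

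DNA repair genes were lower at an unadjusted p below 0.05 in 13 of 83 (15.7%, against 5.24% of all genes and 7.41% of the brighter genes) and higher in 1 (1.205%, against 3.39%); this was again a theme of the study. In homologous recombination and the Fanconi pathway BRCA1 read 6.13 and 6.40 in control and 5.99, 5.89 and 5.73 in treated arrays (-0.39, SE 0.135). EME1 and MUS81, partners in a structure-specific nuclease, differed by -0.39 and -0.35, RAD52 by -0.35 and FANCA by -0.31. In excision repair XPA, the damage verification factor, read 6.62 and 6.77 against 6.15, 6.32 and 6.18 (-0.48, SE 0.106), with the TFIIH helicases ERCC3 (-0.28) and ERCC2 (-0.22), and the exonuclease EXO1 was the 1 gene higher (0.32, SE 0.0951). In end joining and the checkpoint RAD9A (-0.53), CHEK2 (-0.33), PRKDC, the catalytic subunit of DNA-PK (-0.28), RIF1 (-0.28) and DCLRE1C, the nuclease Artemis (-0.24), were lower at that level. The median over all 83 was -0.07, so most repair genes differed little. Genes of G1/S and replication were near balance (24 positive and 29 negative). At an unadjusted p below 0.05, 3 of 53 were lower (5.66%, near the 5.24% of all genes) and 0 higher. The lower genes were PRIM1, a primase subunit, at 8.005 and 7.96 against 7.52, 7.55 and 7.44 (-0.48, SE 0.0892), MCM10 (-0.43) and the phosphatase CDC25A (-0.31). Genes of G2/M and mitosis had 31 positive and 34 negative. At that level 3 of 65 were lower (4.62%, against 5.24% of all genes) and 1 higher (1.54%, against 3.39%). The kinesins KIF15 (-0.44) and KIFC1 (-0.25) and the condensin SMC4 (-0.33) were lower and ANLN of cytokinesis (0.24) higher. Targets of p53 had 8 positive and 13 negative, with FAS, the death receptor, at -0.26. At that level 1 of 21 was lower (4.76%, against 5.24% of all genes) and 0 higher. Of 22 genes of the BCL2 family and caspases 0 reached that level, against 3.39% of all genes higher and 5.24% lower.

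Among lymphoid homing receptors 13 of 17 were positive (median 0.11) and 3 were higher at an unadjusted p below 0.05, namely CXCR5, S1PR1 and S1PR3 (0.29, from a level of 2.64 in control). All 3 started below the array median, where 5.00% of genes were higher at that level, against 3.39% of all genes. B cell receptor signalling held 1 gene at that level, PRKCB, the kinase that links the receptor to NF-kB, at 8.65 and 8.66 in control and 8.93, 9.01 and 9.11 in treated arrays (0.36, SE 0.0976). B lineage and germinal centre factors (0 of 24) and plasma cell genes (0 of 13) held none, against 3.39% of all genes higher and 5.24% lower. The interferon list had 18 of 39 positive. At that level 1 gene was higher (2.56%, against 3.39% of all genes), HERC5 (0.24, from a level of 1.74), and 1 lower (2.56%, against 5.24%). The lower gene, STING1, the adaptor of cytosolic DNA sensing, read 8.03 and 8.04 against 7.57, 7.79 and 7.67 (-0.36, SE 0.103). In the MHC class II list DLA-DOA, a class II chaperone chain, differed by -0.47 (SE 0.161). At that level 1 of 16 was lower (6.25%, near the 5.24% of all genes) and 0 higher.

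The response of 17-71 was then set beside that of CLBL-1 by testing the difference of the log2 differences in a joint limma fit of all 10 arrays. It passed an adjusted p below 0.05 for 10 probe sets (0.0309%), 5 with the value of 17-71 above that of CLBL-1 and 5 below, and leaving out any 1 of the 10 arrays took this count to between 0 and 2. Of the 540 genes higher in 17-71 at an unadjusted p below 0.05, 58.5% were positive in CLBL-1, against 51.1% of all genes, and of the 835 lower, 62.9% were negative there, against 48.9%. WSB1 was lower in treated 17-71 and read 8.23 in control and 8.56 in treated CLBL-1 cells (-0.83 and 0.33, difference -1.16, SE 0.114, adjusted p = 0.0401). CXCR5 read 8.74 and 8.57 in CLBL-1 (0.85 in 17-71 and -0.18 in CLBL-1, difference 1.03, SE 0.11, adjusted p = 0.0401). Both of these named genes thus had opposite signs in the lines. For CYB561A3 both lines were negative, with -0.61 in 17-71 and -2.27 in CLBL-1 (difference 1.66, SE 0.121, adjusted p = 0.0158). PRPF39, a U1 partner, was close to 0 in 17-71 (-0.13, 95% interval -0.485 to 0.219) and 1.54 in CLBL-1 (difference -1.67, SE 0.18, adjusted p = 0.0401).

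Several genes of splicing, and TERT outside that group, had opposite signs in the lines without passing that test. CLK1 was -0.38 in 17-71 and 0.80 in CLBL-1, and SRSF5 -0.65 and 0.34 (both adjusted p = 0.0666 for the difference). LUC7L was -0.37 and 0.32 (adjusted p = 0.197). ARGLU1 was -0.93 and 0.11 (adjusted p = 0.0899) and TERT -0.94 and 0.05 (adjusted p = 0.0826), so their values in CLBL-1 were small. AFMID was negative in both, at -0.96 and -2.09 (adjusted p = 0.0666). For other genes the values of the lines lay close and the difference did not pass, which does not show that they respond alike: TAF15 was -0.85 and -0.97, AP1G2 -0.83 and -1.11, RBKS 0.79 and 0.91, COQ7 0.55 and 0.70, DDX23 0.54 and 0.57 and PRPF8 0.46 and 0.43, with adjusted p of the difference between 0.473 and 0.957. By list, the U2 particle had medians of 0.06 in 17-71 and 0.24 in CLBL-1, the tri-snRNP factors 0.11 and 0.27, the U1 group -0.09 and 0.16, the stress regulators -0.15 and 0.11 and the homing receptors 0.11 and -0.14. The difference between the lines was not tested for the lists.

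**Figure D5:**
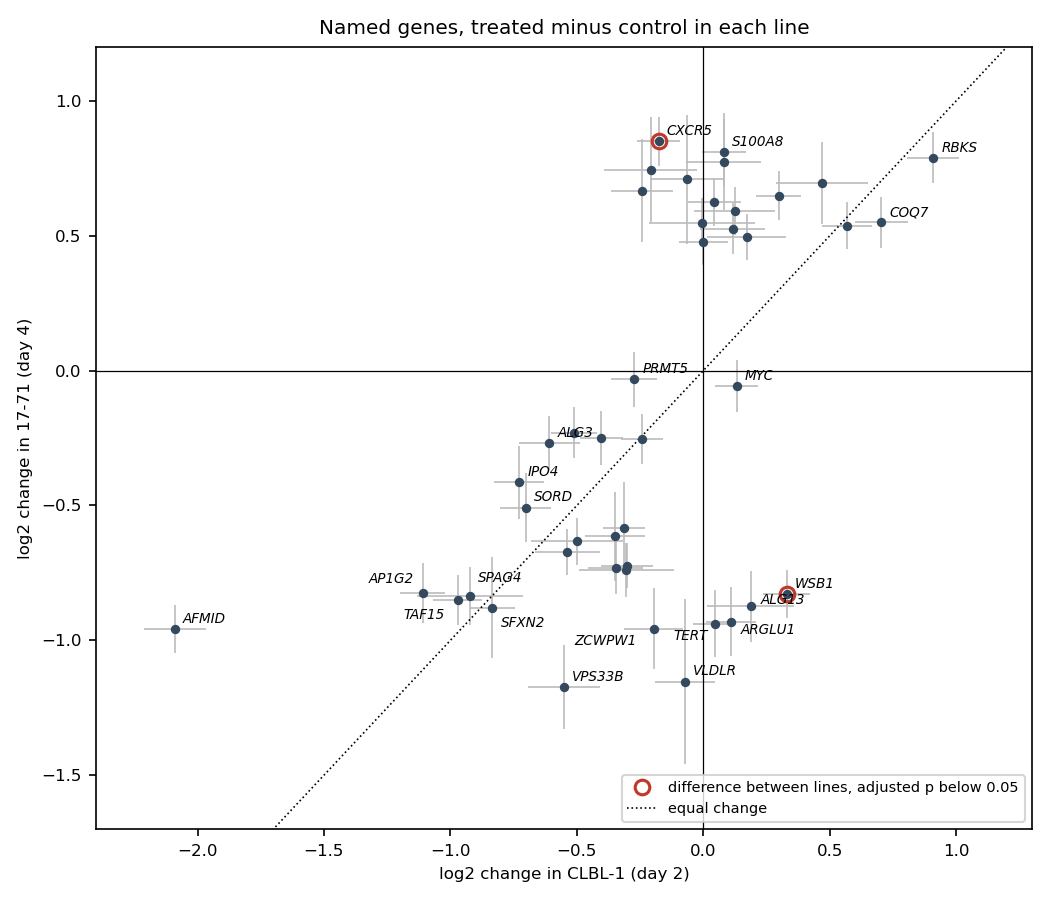
Log2 difference of treated minus control cells in 17-71 at day 4 (vertical axis) against that in CLBL-1 at day 2 (horizontal axis) for PRMT5, MYC, the 8 MYC targets of the study and the genes with the smallest p or largest differences in 17-71; bars are SEs, the dotted line is equal change, and red rings mark an adjusted p below 0.05 for the difference. The ringed genes are CXCR5 (0.85 and -0.18) and WSB1 (-0.83 and 0.33), while RBKS and TAF15 lie near the dotted line.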

How the data were processed

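The authors deposited log2 expression per probe set, made by RMA (in R, per the study's methods; the submitters' processing notes also name limma and Affymetrix Expression Console); whether both lines were normalised in 1 run is not given in the sources used here. Groups came from the labels. Of 32391 probe sets, 16545 had 1 gene symbol in the platform annotation, 370 several and 15476 none here; 15820 were found by gene ID in RefSeq's dog gene table, which changed 0 symbols. For 516 of 15947 genes with more than 1 probe set, that with the highest mean over all arrays was used. Array medians of 17-71 lay between 3.74 and 3.788; for arrays, their number limits the precision.

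limma 3.58.1 in R 4.3.3 (lmFit, eBayes, two-sided) was fitted to the 5 arrays of 17-71 alone (residual df 3), and to all 10 arrays (residual df 6) for the difference between lines, with Benjamini-Hochberg adjustment over all probe sets. The fit was tested on simulated data. Named genes were PRMT5, MYC and the study's 8 MYC targets; per direction, the 12 with the smallest p, and the 8 largest differences at an unadjusted p below 0.05, among genes whose groups did not overlap and whose higher group reached the array median; up to 6 per list by p; and cell type markers. The lists, rules and tests were chosen with earlier results of these data known. Alternatives were the joint fit, an intensity trend with robust variances, quantile and cyclic loess normalisation, a filter on dim probe sets, leaving out 1573 repeated rows, a replicate block and leaving out each array.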

Additional observations from a re-analysis of the deposited data

Results flagged for a closer look

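The test of the difference between the lines passed for 4 of the genes named for 17-71 (limma joint fit of 10 arrays, adjusted over all probe sets). These are among 10 probe sets that passed; leaving out any 1 array took that count to between 0 and 2, and the replicate block took it to 0. For CXCR5 the log2 difference of 17-71 exceeded that of CLBL-1 by 1.03 (SE 0.11, adjusted p = 0.0401), with 0.85 in 17-71 and -0.18 in CLBL-1. For WSB1 it lay below by -1.16 (SE 0.114, adjusted p = 0.0401), with -0.83 and 0.33. For CYB561A3 the difference was 1.66 (SE 0.121, adjusted p = 0.0158), with -0.61 and -2.27, and for PRPF39 -1.67 (SE 0.18, adjusted p = 0.0401), with -0.13 and 1.54. The lines were collected on different days, so line and day cannot be told apart.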

How the results depend on the processing

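The 0 calls for treated against control 17-71 became 15 (2 higher and 13 lower) in the joint fit of all 10 arrays and 35 (12 higher and 23 lower) with an intensity trend and robust variances. RBKS, AFMID, WSB1, TAF15 and HHIPL1 passed in both, CXCR5, TERT and AP1G2 in the first and PRPF3, DDX23, PRPF8, ALYREF, HMGN4, ARGLU1 and CYB561A3 in the second (adjusted p = 0.016 to 0.047). The count stayed at 0 with quantile or cyclic loess normalisation, the filter on dim probe sets, repeated rows left out and any 1 array left out (0 to 0), where the count at an unadjusted p below 0.05 was 2273 to 2581 against 2916. Without control replicate 2 the median of B cell receptor signalling was -0.03.

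The 10 probe sets that differed between lines became 288 with the trend and robust variances and 226 after the filter on dim probe sets. Leaving out any 1 of the 10 arrays took them to between 0 and 2. Same-numbered arrays of 17-71 showed little shared deviation from their group means (correlations -0.011 and 0.0079). The deviations of the 2 control arrays mirror each other, so these values cannot show whether the numbers pair arrays. With the replicate block the counts were 0 for 17-71, with 2356 at an unadjusted p below 0.05, and 0 for the difference between lines.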

Other observations

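Some further gene groups were measured in 17-71, and none of their members passed an adjusted p below 0.05 in limma. Of the WNT pathway 20 of 30 genes were positive (median log2 difference 0.11), with LEF1, a transcription factor of the pathway, at 0.43 from a level of 2.07, and the inhibitors NKD1 at 0.34 and DKK1 at 0.28. APC, a scaffold of beta-catenin destruction (-0.30), and PORCN, which acylates WNT ligands (-0.35), were lower at an unadjusted p below 0.05. In all, 3 of the 30 were higher at that level (10.0%, against 3.39% of all genes) and 2 lower (6.67%, against 5.24%). Mitochondrial ribosomal proteins were balanced (38 positive and 35 negative), and of the TCA cycle and its pyruvate entry 10 of 16 were positive, with DLAT, a subunit of pyruvate dehydrogenase, at 6.75 and 6.89 in control and 7.33, 7.25 and 7.31 in treated arrays (0.48, SE 0.0943). At that level 1 of these 16 was higher (6.25%, against 3.39% of all genes) and 0 lower. Cholesterol synthesis had 12 of 19 negative. Its 1 gene at that level (5.26%, against 3.39% of all genes higher), the decarboxylase MVD, was higher (0.33, SE 0.0829). NF-kB subunits and targets had 13 positive and 15 negative, with TRAF2 at -0.31 and BCL3 at 0.24. At that level 1 was lower and 1 higher (3.57% each, against 5.24% and 3.39% of all genes). EZH1, a histone methyltransferase, read 5.08 and 5.03 against 4.66, 4.79 and 4.57 (-0.38, SE 0.105), and SOCS4, a ubiquitin ligase receptor like WSB1, read 6.63 and 6.68 against 6.29, 6.26 and 6.32 (-0.37, SE 0.0848). Glycolysis, with 16 of 21 negative, held 0 genes at an unadjusted p below 0.05, against 3.39% of all genes higher and 5.24% lower.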
